A study of Mus musculus with 12 samples.

Results

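Proteins that hold the endoplasmic reticulum (ER) against mitochondria, and channels that pass calcium from the ER into them, were followed in mouse brown fat with and without Sel1L. The group was fixed by name and holds 10 genes. The channels are Itpr1, Itpr2, Itpr3, Vdac1 and Mcu, the tethers and their partners are Vapb, Rmdn3, Pacs2 and Pdzd8, and Acsl4 is an enzyme of the contact membrane. A gene was measured where a probe set carried its symbol alone, which held for 9 of the 10 members among 22180 genes in all; Itpr1 was not analysed here. Each gene is given by its probe set with the highest mean, in log2 units.

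The study measured RNA by microarray in 12 samples of brown adipose tissue, 1 array each, 3 per group in 4 groups. Controls, called wildtype in the sample titles, were Sel1L f/f littermates on the C57BL/6J background. Control and knockout mice alike therefore carried floxed Sel1L alleles. Knockouts, named Sel1LAdipCre, also carried a Cre recombinase driven by the Adiponectin promoter, which is active in adipocytes of every depot and leaves Sel1L in the other cells of the tissue. All mice were fasted for 5 h, and a control and a knockout group each spent this time at room temperature or at 4 °C. The labels used here give no sex or age. Sel1L is the adaptor of the Sel1L-Hrd1 complex, which draws misfolded proteins out of the ER for degradation, and the series title names ER-mitochondria contacts during thermogenesis as its question.

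ER-mitochondria contacts are patches where the ER lies close to the outer mitochondrial membrane without fusing with it. Inositol trisphosphate receptors open on the ER side, calcium crosses the outer membrane through VDAC channels, and the uniporter MCU carries it across the inner membrane. Tether proteins hold the membranes together, and the same patches exchange lipids. In brown adipocytes, mitochondria burn fatty acids to make heat, and calcium entering the matrix activates dehydrogenases that feed the respiratory chain.

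Sel1l checked the genotype labels. Its log2 level was 7.37, 6.96 and 7.23 in controls at room temperature and 6.18, 6.09 and 5.92 in knockouts, a difference of -1.12 ± 0.14 (SE, n = 3 per group; limma adjusted p = 0.00114). At 4 °C it was 6.99, 6.69 and 7.04 in controls and 6.90, 6.73 and 6.54 in arrays labelled knockout, groups that overlapped (-0.19 ± 0.14, adjusted p = 0.605), so the genotype labels at 4 °C were not borne out by this gene and the arrays are called knockout by their labels. Between the arrays labelled knockout, Sel1l was called higher at 4 °C than at room temperature. That call was lost without either of 2 single arrays (limma adjusted p up to 0.0603). Hspa5, the main ER chaperone, was higher in the arrays labelled knockout at both temperatures, by 2.07 at room temperature and 2.71 at 4 °C (limma adjusted p = 5.25e-06 and 1.9e-07). Control replicate 3 at room temperature has a source label that says 4 °C, against its title and its temperature field; the cold calls are also given with this array left out or counted at 4 °C. All 12 brown adipocyte markers had a mean above 4 (Ucp1 12.64), while 6 of 7 lymphocyte markers lay below it. The mean of the brown adipocyte markers was 9.34 to 9.38 in knockouts at 4 °C, below every array of the other groups (9.62 ± 0.02 in controls at 4 °C, SD, n = 3). There 10 of 12 markers were lower than in controls and 2 were called (5.8% of all probe sets were). The 2 were Ppara (-1.49, limma adjusted p = 0.000165) and Pparg (-0.78, adjusted p = 0.0144), both regulators of fat metabolism. All 9 endothelial markers were lower as well, with 0 called by limma and 3 at an unadjusted p under 0.05 (16.9% of all probe sets). All 7 smooth muscle markers were also lower at 4 °C, with 0 called and 2 at an unadjusted p under 0.05. With cold, limma called 2 endothelial markers higher and 2 lower in controls, and 1 higher and 3 lower in knockouts. Over all probe sets cold called 11.1% in controls and 9.03% in knockouts. The part of these shifts in the genotype differences at 4 °C and in the cold differences was not tested. The mean of 17 skeletal muscle markers ran from 2.57 to 7.71 between arrays and was 6.71 ± 0.43 in controls and 4.23 ± 1.75 in knockouts at room temperature (SD, n = 3), and 5.90 ± 1.59 and 4.91 ± 2.06 at 4 °C. In bulk tissue, fewer cells of a type and less RNA per cell cannot be told apart.

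Among the 9 measured members, Acsl4, Itpr2 and Rmdn3 moved and 6 did not pass the test in any comparison. Acsl4 rose with cold in both genotypes and was higher in knockouts at 4 °C. Itpr2 fell with cold in both genotypes. Rmdn3 rose with cold in controls. A change was called where the limma p, adjusted by Benjamini-Hochberg over 23521 probe sets, was under 0.05. Between knockouts and controls at room temperature 0 of 9 members were called (1.72% of all probe sets were), and at 4 °C 1 of 9 (5.8% of all). At an unadjusted p under 0.05 the room temperature count was 2, namely Acsl4 and Rmdn3, against 3058 of all 23521 probe sets. Limma with a trended, robust spread called 2 members there. Cold against room temperature called 3 of 9 in controls (11.1% of all) and 2 of 9 in knockouts (9.03% of all). These shares are over probe sets of every level. By mean over the arrays the members lay from the 82.0th percentile (Mcu) to the 98.6th (Vdac1), except Itpr3 at the 60.2nd. Shares at matched levels were not counted. The 3 calls in controls were kept without the array with conflicting labels. With that array counted among the controls at 4 °C they were lost, at limma adjusted p = 0.254 for Acsl4, 0.296 for Itpr2 and 0.108 for Rmdn3. In that array Acsl4, Itpr2 and Rmdn3 (5.73, 8.31 and 6.57) lay outside the range of the controls at 4 °C. Of the uncalled members, Vapb, Pacs2 and Pdzd8 (6.60, 6.51 and 7.11) lay within it. Which label is right was not tested. No member was called for the interaction of genotype and temperature by limma (0.306% of all). There 1 member had an unadjusted p under 0.05 (9.77% of all). Averaged over temperatures genotype called 1 member (6.96% of all), and averaged over genotypes temperature called 2 (17.6% of all). The members' median difference was -0.05 for genotype at room temperature, 0.02 for genotype at 4 °C, -0.08 for cold in controls and -0.06 for cold in knockouts; over all probe sets the medians were -0.0053, -0.012, -0.010 and -0.013.

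**Figure D1:**
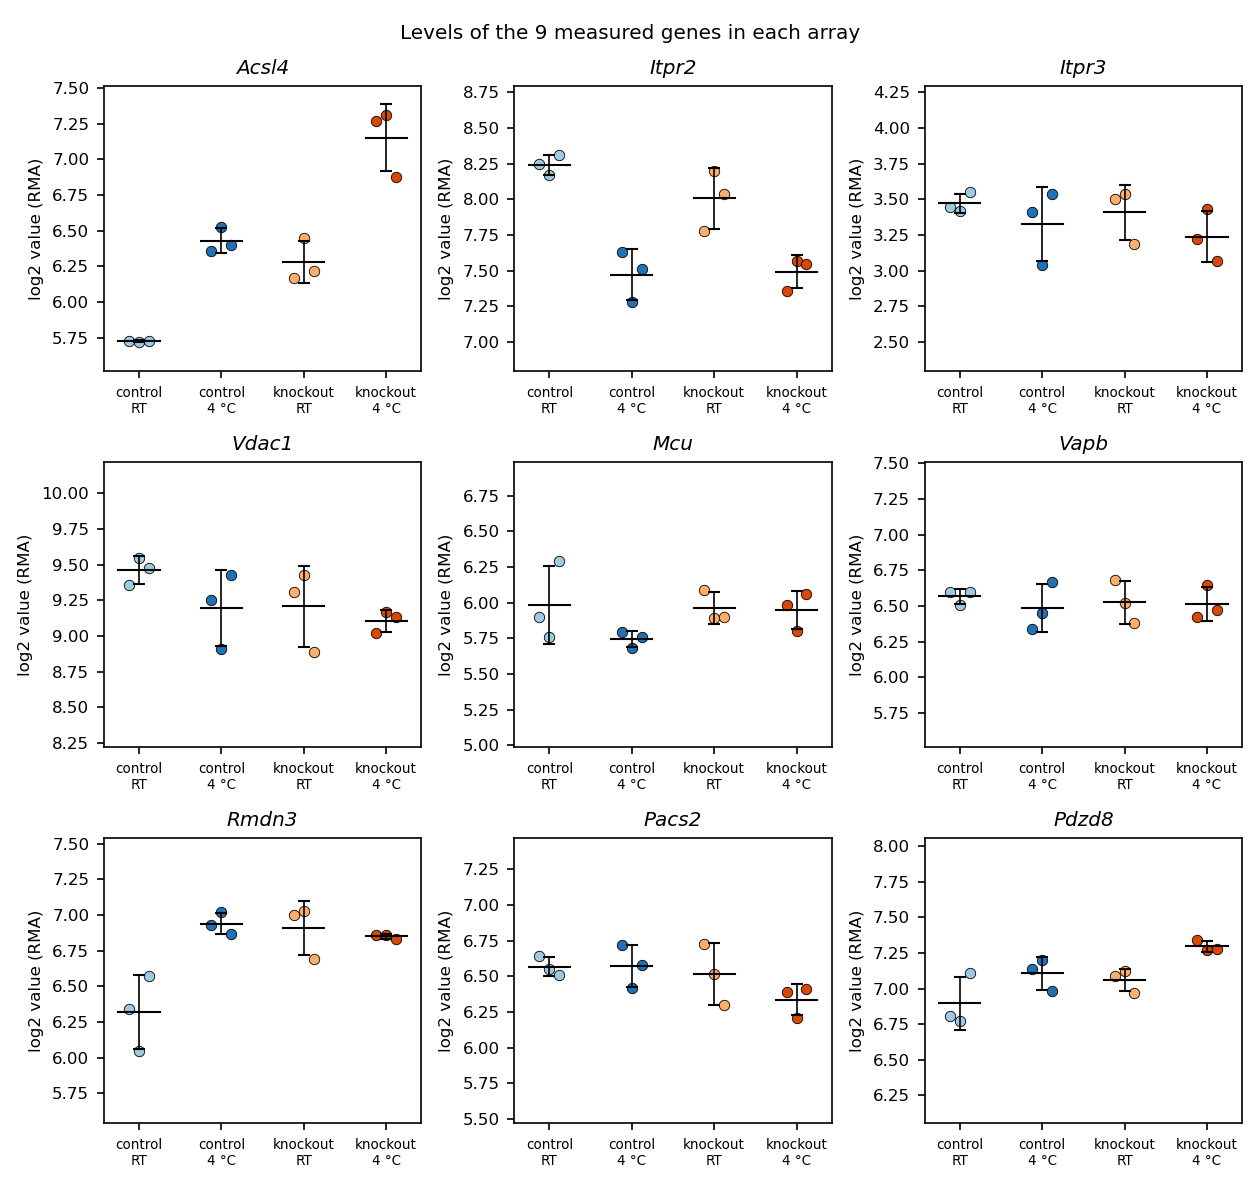
Log2 expression of the 9 measured members in each of the 12 arrays, by genotype and temperature (3 arrays per group; points are arrays, wide lines are group means, error bars are SD). Acsl4 is lowest in controls at room temperature (5.72 to 5.73) and highest in knockouts at 4 °C (6.88 to 7.31), and Itpr2 is lower at 4 °C in both genotypes.

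The sequence upstream of the 3 members that changed, and of Pdzd8, whose values ran with those of Rmdn3 and Acsl4, is shown to set their start regions side by side. Each is the 250 bases before the start of the gene in RefSeq on GRCm38.p6, read 5′ to 3′ on the gene's own strand, which is the minus strand for all 4. The windows are chrX:142390536-142390785 for Acsl4, chr6:146502224-146502473 for Itpr2, chr2:119157035-119157284 for Rmdn3 and chr19:59345781-59346030 for Pdzd8. Capitals mark a cyclic AMP response element (TGACGTCA) or a CCAAT box (CCAAT, or ATTGG on the other strand).
Acsl4: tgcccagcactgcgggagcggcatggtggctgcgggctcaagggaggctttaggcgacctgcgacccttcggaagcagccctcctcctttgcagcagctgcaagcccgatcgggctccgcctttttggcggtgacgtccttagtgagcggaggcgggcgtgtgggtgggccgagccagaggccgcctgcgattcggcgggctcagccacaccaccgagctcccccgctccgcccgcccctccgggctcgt
Itpr2: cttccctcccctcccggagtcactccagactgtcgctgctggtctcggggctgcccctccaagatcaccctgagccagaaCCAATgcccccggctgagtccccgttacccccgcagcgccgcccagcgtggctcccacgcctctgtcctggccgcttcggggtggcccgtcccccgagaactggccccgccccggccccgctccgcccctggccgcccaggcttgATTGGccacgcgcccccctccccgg
Rmdn3: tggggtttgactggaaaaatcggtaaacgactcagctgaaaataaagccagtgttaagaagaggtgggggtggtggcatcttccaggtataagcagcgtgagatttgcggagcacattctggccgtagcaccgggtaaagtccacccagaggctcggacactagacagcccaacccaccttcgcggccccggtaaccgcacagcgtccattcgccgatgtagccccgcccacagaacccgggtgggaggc
Pdzd8: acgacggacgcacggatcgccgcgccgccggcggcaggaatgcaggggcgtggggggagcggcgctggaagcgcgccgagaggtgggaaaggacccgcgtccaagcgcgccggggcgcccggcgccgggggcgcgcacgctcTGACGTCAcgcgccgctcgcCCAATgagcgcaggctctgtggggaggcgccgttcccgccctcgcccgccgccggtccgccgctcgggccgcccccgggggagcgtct

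All 9 measured members had an upstream window in the RefSeq table, and Vdac1 had 2. They were searched on both strands for 6 motifs. Of these the ER stress element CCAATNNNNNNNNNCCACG lay in 0.113% of all 32851 windows of this length, the unfolded protein response element TGACGTGG in 0.563%, the amino acid response element TGATGNAA in 3.45%, the cyclic AMP response element TGACGTCA in 1.55%, CCAAT in 33.8% and the GC box GGGCGG in 32.7%. The ER stress element contains CCAAT, and TGACGTGG shares TGACGT with the cyclic AMP response element. None of the first 3 was found in a member's window. The cyclic AMP response element was found in Pdzd8 alone among the members, from base -108 to -101. CCAAT was found in the windows of Itpr2, Mcu and Pacs2 at 2 places each and in that of Pdzd8 at 1. Acsl4 and Rmdn3, which both rose with cold in controls, had GC boxes but none of the other 5. A match is a run of letters and not a site, and a window without a match says nothing about the factor.

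Itpr2 encodes an inositol trisphosphate receptor, a channel that releases calcium from the ER. Its log2 level was 8.25, 8.17 and 8.31 in controls at room temperature and 7.63, 7.28 and 7.51 in controls at 4 °C. In knockouts it was 7.78, 8.20 and 8.04 at room temperature and 7.36, 7.57 and 7.55 at 4 °C. Every array at 4 °C lay below every array at room temperature of the same genotype. In controls the fall was -0.77 ± 0.13 (SE, n = 3 per group; 1.71-fold lower; limma adjusted p = 0.0026), and it stayed called when any single array was left out. In knockouts the fall was -0.52 ± 0.13 (1.43-fold lower; limma adjusted p = 0.0264). With the array with conflicting labels counted at 4 °C the p in knockouts was 0.224. This call was also lost without knockout replicate 2 or 3 at room temperature (adjusted p = 0.111 and 0.0771) or without knockout replicate 1, 2 or 3 at 4 °C (0.108, 0.0568 and 0.0542). The cold falls of the 2 genotypes did not differ past the test (interaction 0.25 ± 0.18, adjusted p = 0.727, 95% interval -0.15 to 0.65). Averaged over genotypes, cold lowered Itpr2 by 0.65 ± 0.09 on the log2 scale (limma adjusted p = 0.000391; two-sided exact permutation p = 0.005). With the array with conflicting labels counted at 4 °C this adjusted p was 0.0574.

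Genotype did not separate Itpr2. The knockout arrays at room temperature overlapped the controls (-0.24 ± 0.13, limma adjusted p = 0.492), and at 4 °C the difference was 0.02 ± 0.13 (adjusted p = 0.976, 95% interval -0.27 to 0.30). The permutation test exchanges temperature labels within a genotype, or genotype labels within a temperature, and 0.005 is the smallest p its 400 arrangements can give. It was run for 18 averaged effects, unadjusted.

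Itpr3, another inositol trisphosphate receptor, had 2 probe sets. The brighter was at 3.45, 3.42 and 3.55 in controls at room temperature and 3.41, 3.04 and 3.54 at 4 °C. It read 3.50, 3.54 and 3.19 in knockouts at room temperature and 3.22, 3.43 and 3.07 at 4 °C. All 4 groups overlapped, and no comparison was called (differences -0.17 to -0.06). The other probe set had a mean of 1.98, against array medians of 2.03 to 2.09, and fell with cold in controls by 0.69 ± 0.19 on the log2 scale (limma adjusted p = 0.0395) while its difference in knockouts was -0.10 ± 0.19. Both probe sets of Itpr3 were lower with cold in controls, and the difference between them was not tested.

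Vdac1 encodes the channel of the outer mitochondrial membrane that faces the ER receptors. Its level was 9.36, 9.55 and 9.48 in controls at room temperature, 9.25, 8.91 and 9.43 in controls at 4 °C, 9.31, 9.43 and 8.89 in knockouts at room temperature and 9.02, 9.17 and 9.13 in knockouts at 4 °C. The groups overlapped in every comparison, and none was called. The largest differences were -0.27 ± 0.16 with cold in controls (limma adjusted p = 0.352) and -0.26 ± 0.16 for knockouts against controls at room temperature (adjusted p = 0.553). Vdac1 ran with the skeletal muscle score over the 12 arrays (Pearson r = 0.57), and with that score in the fit the room temperature difference was -0.11. Its paralogs Vdac2 and Vdac3 differed by -0.15 to 0.11 in the genotype and cold comparisons, none called.

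Mcu is the pore of the calcium uniporter of the inner membrane. It was at 5.90, 5.76 and 6.29 in controls at room temperature, 5.79, 5.68 and 5.76 in controls at 4 °C, 6.09, 5.89 and 5.90 in knockouts at room temperature and 5.98, 5.80 and 6.06 in knockouts at 4 °C. The knockout arrays at 4 °C all lay above the controls at 4 °C, but the difference of 0.20 ± 0.14 did not pass (limma adjusted p = 0.530). Micu2, a gatekeeper of the uniporter, was at 5.96, 5.20 and 5.89 in controls and 6.26, 6.59 and 6.44 in knockouts at 4 °C. This was 0.75 ± 0.22 higher without passing at that temperature (adjusted p = 0.0659), and averaged over temperatures Micu2 was called (0.55 ± 0.15, limma adjusted p = 0.0464), a call lost without any of 9 single arrays of the 12 (adjusted p up to 0.109). Smdt1, the small subunit that joins the pore to its gatekeepers, differed by 0.13 or less in every comparison of groups. Mcub was not analysed here.

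Vapb, an ER membrane protein, and Rmdn3 (also called PTPIP51), a protein of the outer mitochondrial membrane, bind each other and form a tether. Rmdn3 was at 6.34, 6.05 and 6.57 in controls at room temperature and 6.93, 7.02 and 6.87 in controls at 4 °C. Knockouts had 7.00, 7.03 and 6.69 at room temperature and 6.86, 6.86 and 6.83 at 4 °C. The controls at room temperature stood below the arrays of the other 3 groups. With cold Rmdn3 rose in controls by 0.62 ± 0.14 (SE, n = 3 per group; 1.54-fold; limma adjusted p = 0.0112), a call kept without any single array (highest adjusted p = 0.0477). In knockouts the cold difference was -0.06 ± 0.14 (adjusted p = 0.896). The interaction was -0.68 ± 0.19 and did not pass over all probe sets (limma adjusted p = 0.212, 95% interval -1.10 to -0.26).

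At room temperature every knockout array was above every control for Rmdn3, with a difference of 0.59 ± 0.14 (1.5-fold) whose limma adjusted p of 0.0526 missed the threshold. It passed without control replicate 3, the array with conflicting labels (0.0289), or without knockout replicate 3 (0.0403), and was 0.214 when the muscle score entered the fit. At 4 °C every knockout array was below every control, by a small margin (-0.09 ± 0.14, adjusted p = 0.833). Non-overlap is common at 3 arrays per group: it held for 17.4% of all probe sets at room temperature and 21.8% at 4 °C. The members had 2 of 9 and 5 of 9. In the cold comparisons 3 of 9 members were apart in each genotype, against 25.9% of all probe sets in controls and 25.8% in knockouts.

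Vapb, the ER side of that tether, did not follow Rmdn3. It was at 6.60, 6.51 and 6.60 in controls at room temperature, 6.34, 6.45 and 6.67 in controls at 4 °C, 6.68, 6.52 and 6.38 in knockouts at room temperature and 6.42, 6.65 and 6.47 in knockouts at 4 °C. Its differences ran from -0.08 to 0.03 in the comparisons of groups, none called, and the 95% interval for genotype at room temperature was -0.31 to 0.21. Vapa, the close paralog of Vapb, was at 7.10, 7.49 and 7.15 in controls at room temperature and 7.97, 7.95 and 7.55 at 4 °C, and rose by 0.57 ± 0.14 (limma adjusted p = 0.017). In knockouts Vapa was at 7.65, 7.66 and 7.66 at room temperature and 8.16, 8.25 and 8.07 at 4 °C, and rose by 0.50 ± 0.14 (adjusted p = 0.0378). Both calls were lost with some single arrays left out, most of all control replicate 1 at room temperature (adjusted p = 0.0745) and knockout replicate 2 at 4 °C (0.134). Without the array with conflicting labels the p in controls was 0.0597. Rmdn1 and Rmdn2, relatives of Rmdn3, were not called in any comparison. The largest difference of Rmdn1 was -0.41 ± 0.13 for knockouts at 4 °C (adjusted p = 0.105) and that of Rmdn2 was 0.41 ± 0.19 in the same comparison (adjusted p = 0.299).

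Pdzd8 is an ER protein with a lipid transfer domain that takes part in contacts with mitochondria. Its level was 6.81, 6.77 and 7.11 in controls at room temperature, 7.14, 7.20 and 6.98 in controls at 4 °C, 7.09, 7.12 and 6.97 in knockouts at room temperature and 7.34, 7.27 and 7.28 in knockouts at 4 °C. The knockout arrays at 4 °C lay above all other arrays. The difference was 0.19 ± 0.11 against controls at 4 °C (limma adjusted p = 0.445) and 0.24 ± 0.11 against knockouts at room temperature (adjusted p = 0.256), neither called. Averaged effects were 0.18 ± 0.08 for genotype (limma adjusted p = 0.246; exact permutation p = 0.03) and 0.22 ± 0.08 for cold (adjusted p = 0.0765; exact permutation p = 0.01).

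Pacs2 is a sorting protein needed to keep ER apposed to mitochondria. It was at 6.64, 6.55 and 6.51 in controls at room temperature, 6.72, 6.42 and 6.58 in controls at 4 °C, 6.73, 6.52 and 6.30 in knockouts at room temperature and 6.39, 6.21 and 6.41 in knockouts at 4 °C. The knockouts at 4 °C were all below the controls at 4 °C, by -0.24 ± 0.13, which did not pass (limma adjusted p = 0.390). Its paralog Pacs1 was at 5.53, 5.21 and 5.35 in controls at room temperature and 4.63, 4.62 and 4.79 at 4 °C, a fall of -0.68 ± 0.13 (1.60-fold lower; limma adjusted p = 0.006). In knockouts Pacs1 was at 4.90, 5.25 and 5.04 at room temperature and 4.51, 4.68 and 4.89 at 4 °C, which was not called.

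Acsl4 encodes a long-chain acyl-CoA synthetase that prefers arachidonic acid and is widely used as a marker of the contact membrane. It was at 5.73, 5.72 and 5.73 in controls at room temperature and 6.36, 6.53 and 6.40 in controls at 4 °C. Knockouts had 6.17, 6.45 and 6.22 at room temperature and 7.27, 7.31 and 6.88 at 4 °C. The groups were apart in all 4 comparisons, with controls at room temperature lowest and knockouts at 4 °C highest. Knockouts at room temperature (6.28 ± 0.15, SD, n = 3) and controls at 4 °C (6.43 ± 0.09) stood between them and overlapped. With cold Acsl4 rose by 0.70 ± 0.13 in controls (SE, n = 3 per group; 1.62-fold; limma adjusted p = 0.00382) and by 0.87 ± 0.13 in knockouts (1.83-fold; adjusted p = 0.00116). In knockouts at 4 °C it was 0.73 ± 0.13 above controls (1.66-fold; limma adjusted p = 0.00392), a call that held in all 23 alternatives, with a highest adjusted p of 0.0252.

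At room temperature the difference of Acsl4 was 0.55 ± 0.13 (1.47-fold, 95% interval 0.28 to 0.83), and its limma adjusted p of 0.050016 fell just outside the threshold. It passed without knockout replicate 3 at 4 °C (0.0245) and was 0.297 when the muscle score entered the fit, at a difference of 0.46. The genotype differences at the 2 temperatures did not differ past the test (interaction 0.18 ± 0.18, adjusted p = 0.826, 95% interval -0.21 to 0.56). Averaged over temperatures Acsl4 was 0.64 ± 0.09 higher in knockouts (1.56-fold; limma adjusted p = 0.000671; two-sided exact permutation p = 0.005). Averaged over genotypes it was 0.79 ± 0.09 higher in the cold (1.72-fold; limma adjusted p = 8.9e-05; exact permutation p = 0.005). Each permutation p is the smallest that test can give.

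Of the relatives of Acsl4, 2 of 4 were measured, and Acsl1 and Acsl3 were not analysed here. Acsl5, an acyl-CoA synthetase of mitochondria and ER, was at 8.42, 7.02 and 8.71 in controls and 6.05, 6.53 and 6.70 in knockouts at 4 °C. It fell by 1.62 ± 0.38 on the log2 scale (3.08-fold lower; limma adjusted p = 0.0248), opposite in sign to Acsl4. The call was lost without any 1 of the 6 arrays compared except control replicate 2 (highest adjusted p = 0.105). Acsl6 was not called in any comparison.

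**Figure D2:**
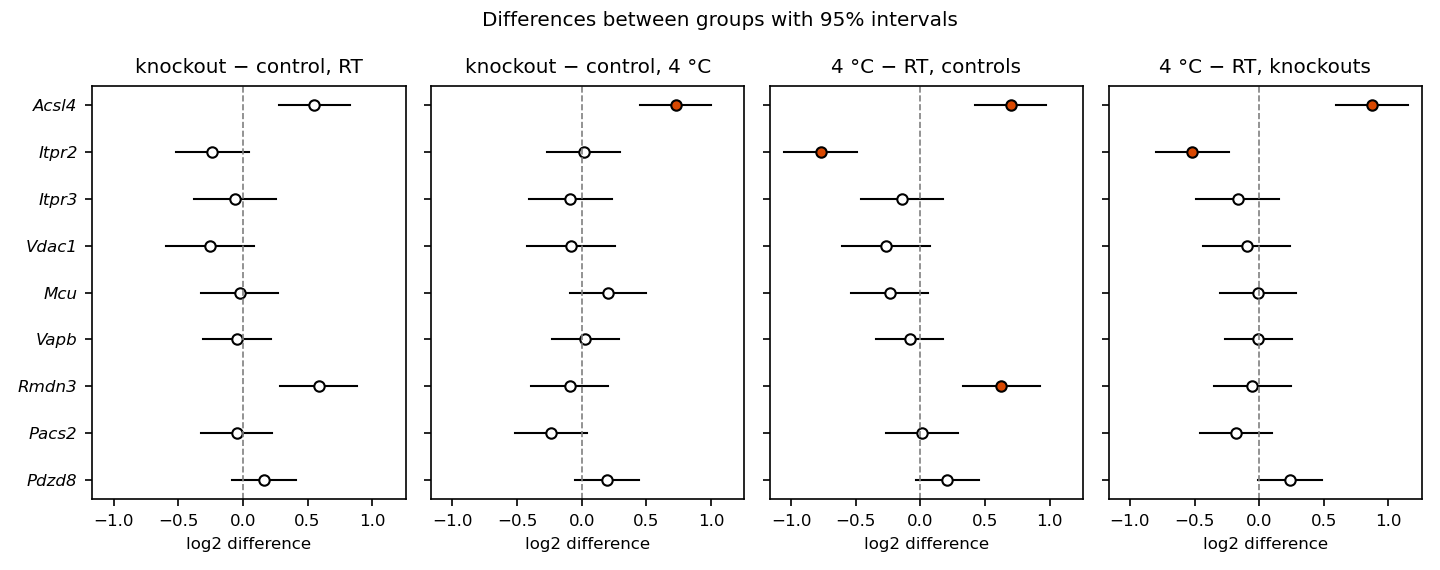
Log2 difference of each measured member in the 4 comparisons of groups, with 95% confidence intervals from limma (3 arrays per group; filled points are called, open points are not). Acsl4 stands at 0.55 to 0.87 in all 4, Itpr2 is low in the cold comparisons (-0.77 and -0.52), and Rmdn3 is high for knockouts at room temperature (0.59) and for cold in controls (0.62).

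The 36 pairs of measured members were compared over the 12 arrays, which share groups, so that r is given as a description. Pdzd8 and Acsl4 had r = 0.84, and Itpr2 and Acsl4 had r = -0.76. After the group means were taken out these were 0.22 and 0.02. Rmdn3 and Pdzd8 had r = 0.74 and kept 0.85 within groups, and Itpr3 and Vdac1 had 0.83 and kept 0.82. Those pairs therefore varied together between arrays of the same group, while the pairs named with Acsl4 did so between groups. They had the highest within-group r of the 36 pairs, followed by Mcu with Rmdn3 (0.66) and Mcu with Pdzd8 (0.65). Itpr3, at a mean of 3.36, and Vdac1 also ran with the skeletal muscle score (r = 0.43 and 0.57). Rmdn3 and Vapb, the proteins of a single tether, had r = -0.07 over the arrays and 0.33 within groups.

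Among 8264 probe sets with a mean above 4, those most like a changed member were found by Pearson r over the 12 arrays. For Acsl4 they were Zfp330 and Nus1 (both r = 0.98) and Suco (0.97). For Itpr2 they were Myo5c (0.98), Lrig1 (0.97) and Marveld1 (0.96), and for Rmdn3 they were Dhrs9 (0.95), Sec24c and Tob1 (both 0.92).

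Other proteins of the contact membrane were taken from a list of 32, of which 30 were measured. Knockouts against controls called 1 up and 1 down at room temperature and 3 up and 3 down at 4 °C. Of all probe sets, 1.29% were called higher and 0.429% lower at room temperature and 3.61% and 2.19% at 4 °C. Cold called 2 up and 4 down in each genotype; over all probe sets it called 4.85% higher and 6.23% lower in controls and 4.32% and 4.7% in knockouts. The 6 cold calls in controls came to 3 without control replicate 1 at either temperature or control replicate 2 at 4 °C. Without the array with conflicting labels the count was 4, with Vapa, Osbpl5 and Mospd2 among those lost. With that array counted at 4 °C it was 0 in controls (Dgat2 0.231, Pacs1 0.257) and 2 in knockouts (Dgat2 0.214). The 6 calls in knockouts came to 3 without knockout replicate 1 at room temperature, 2 without replicate 2 or 3 there, and 1 without replicate 1 or 2 at 4 °C. Rrbp1, a ribosome-binding protein of the rough ER that also bridges to mitochondria, was at 5.84, 5.99 and 6.05 in controls and 6.61, 6.99 and 6.94 in knockouts at room temperature, a rise of 0.89 ± 0.13 (1.85-fold; limma adjusted p = 0.00281). At 4 °C it was at 5.91, 5.77 and 5.56 against 7.19, 7.30 and 7.29, a rise of 1.51 ± 0.13 (2.85-fold; adjusted p = 1.02e-05). No array of Rrbp1 in knockouts reached down to the controls.

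Atad3a, an ATPase of the inner mitochondrial membrane that spans to contact sites, was at 7.60, 7.78 and 7.70 in controls and 7.20, 7.07 and 7.14 in knockouts at room temperature, a fall of -0.56 ± 0.10 (limma adjusted p = 0.00869). At 4 °C it was at 7.61, 7.68 and 7.72 against 6.94, 7.05 and 7.02, a fall of -0.67 ± 0.10 (adjusted p = 0.00086). The room temperature call was lost with the muscle score in the fit (limma adjusted p = 0.0997) and with only the arrays compared (0.0655). Ptdss2, a phosphatidylserine synthase of the contact membrane, was at 7.34, 7.23 and 7.45 in controls and 6.06, 5.88 and 6.33 in knockouts at 4 °C, a fall of -1.25 ± 0.14 (2.38-fold lower; limma adjusted p = 0.000111). Within knockouts Ptdss2 fell with cold by 0.87 ± 0.14 on the log2 scale (adjusted p = 0.00216). Erlin1, an ER protein that binds activated inositol trisphosphate receptors and helps to degrade them, was at 4.04, 3.79 and 3.93 in controls and 5.07, 5.08 and 4.50 in knockouts at 4 °C, a rise of 0.96 ± 0.17 (1.95-fold; adjusted p = 0.00354).

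Dgat2, which makes triglyceride, showed the largest cold difference of this list: it was at 11.65, 11.31 and 11.43 in controls at room temperature and 9.44, 8.58 and 10.13 at 4 °C, a fall of -2.08 ± 0.35 (4.23-fold lower; limma adjusted p = 0.00263). In knockouts Dgat2 was at 10.94, 11.24 and 11.13 at room temperature and 8.99, 10.07 and 10.20 at 4 °C, a fall of -1.35 ± 0.35 (adjusted p = 0.0319; 0.123 without knockout replicate 1 at 4 °C). Outside the rule for named genes, the remaining calls for genotype at 4 °C were Fundc1, a mitophagy receptor, up by 0.69 ± 0.13 (adjusted p = 0.00641), and Vps13a, a lipid transfer protein, down by -0.78 ± 0.17 (adjusted p = 0.0148; 0.0652 without knockout replicate 3 at 4 °C). Both were named after their values were seen.

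Mitochondrial calcium handling was taken from a list of 17, of which 15 were measured. At room temperature 0 were called between genotypes by limma, with 6 at an unadjusted p under 0.05. Of all 23521 probe sets, 3058 lay under it in this comparison. At 4 °C 1 rose (Rhot1) and 3 fell (Letm1, Letmd1 and Rhot2), where 3.61% of all probe sets were called higher and 2.19% lower. This count of 4 came to 0 without control replicate 1 or knockout replicate 1 at 4 °C. It came to 1 without knockout replicate 2 and 2 without control replicate 3. When the muscle score entered the fit the count was 2. Rhot1 and Rhot2, which move mitochondria along microtubules, were named after their values were seen. Letm1, a cation exchanger of the inner membrane, was at 8.49, 8.16 and 8.32 in controls and 7.64, 7.68 and 7.79 in knockouts (-0.62 ± 0.14, limma adjusted p = 0.0221). Letmd1, its relative, which is abundant in brown fat, was at 10.60, 10.38 and 10.64 in controls and 9.85, 9.95 and 10.09 in knockouts (-0.57 ± 0.12, adjusted p = 0.0123). Without control replicate 1 at 4 °C the p of Letm1 was 0.0987, and without knockout replicate 1 at 4 °C that of Letmd1 was 0.0559.

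With cold 1 of the 15 rose and 2 fell in controls (4.85% and 6.23% of all probe sets). In knockouts 2 rose and 3 fell (4.32% and 4.7% of all). With the array with conflicting labels counted at 4 °C both counts came to 0 (in controls Slc25a25 0.118, Slc25a23 0.237 and Slc8b1 0.268; in knockouts Slc25a25 0.0661). The control count of 3 came to 5 without control replicate 3 at 4 °C, and the knockout count of 5 to between 1 and 3 without any 1 of the 6 knockout arrays. Slc25a25, a calcium-sensitive carrier of ATP-Mg and phosphate, was at 2.84, 2.87 and 3.44 in controls at room temperature and 5.22, 5.80 and 5.13 at 4 °C, a rise of 2.33 ± 0.26 (5.04-fold; limma adjusted p = 0.00024). In knockouts Slc25a25 was at 2.83, 2.96 and 3.66 and then 5.11, 4.86 and 4.47, a rise of 1.66 ± 0.26 (3.17-fold; adjusted p = 0.00164). Its relative Slc25a23 went the other way, from 9.16, 9.23 and 9.21 to 8.39, 7.91 and 8.46 in controls (-0.95 ± 0.15, adjusted p = 0.00163). Slc8b1, the sodium-calcium exchanger that lets calcium out of mitochondria, was at 6.55, 6.75 and 6.70 and then 5.85, 5.74 and 6.00 in controls, a fall of -0.80 ± 0.14 (1.75-fold lower; limma adjusted p = 0.00256). In knockouts Slc25a23 fell by 0.58 ± 0.15 on the log2 scale (adjusted p = 0.0298, 0.125 without knockout replicate 1 at 4 °C) and Slc8b1 by 0.61 ± 0.14 (adjusted p = 0.0131, 0.0644 without knockout replicate 2 at 4 °C). Slc25a24, a further carrier of this kind, rose in knockouts by 1.14 ± 0.29 (adjusted p = 0.0261, 0.112 without knockout replicate 1 at 4 °C).

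ER calcium handling was taken from a list of 28, of which 27 were measured. Knockouts against controls called 3 up and 0 down at room temperature and 4 up and 0 down at 4 °C. The shares of all probe sets called higher and lower were 1.29% and 0.429% at room temperature and 3.61% and 2.19% at 4 °C. Calr, the calcium-binding chaperone of the ER lumen, was at 9.68, 9.48 and 9.63 in controls and 10.96, 10.91 and 10.76 in knockouts at room temperature (1.28 ± 0.11, 2.43-fold; limma adjusted p = 4.1e-05). At 4 °C it was at 9.72, 9.62 and 9.44 against 11.41, 11.42 and 11.32 (1.79 ± 0.11, 3.46-fold; adjusted p = 6.2e-07). The membrane-bound chaperone Canx was at 9.70, 9.71 and 9.63 in controls and 10.86, 10.90 and 10.62 in knockouts at room temperature, a rise of 1.11 ± 0.11 (adjusted p = 0.000138), and rose by 1.13 ± 0.11 at 4 °C (adjusted p = 3.56e-05). Tmbim6, an ER membrane protein that leaks calcium and restrains cell death, rose by 0.79 ± 0.12 at room temperature (adjusted p = 0.00544; 0.0601 with the muscle score in the fit) and 1.16 ± 0.12 at 4 °C (adjusted p = 7.8e-05). Erp44, a thiol protein of the lumen that binds inositol trisphosphate receptors, rose at 4 °C by 0.51 ± 0.10 (adjusted p = 0.0119; 0.0544 without knockout replicate 1 at 4 °C). Calr, Canx and Erp44 also act in protein folding.

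Cold called 1 up and 3 down of the 27 in controls (4.85% and 6.23% of all probe sets). In knockouts it called 3 up and 1 down (4.32% and 4.7% of all). The control count of 4 came to 2 without control replicate 1 or 2 at room temperature and 1 without control replicate 2 at 4 °C. It was 3 without the array with conflicting labels, with Stim1 lost, and 0 with that array counted at 4 °C (Atp2a2 0.147, Orai3 0.266). Atp2a2, the calcium pump that fills the ER, was at 9.68, 9.31 and 9.84 in controls at room temperature and 10.41, 10.25 and 10.08 at 4 °C (0.63 ± 0.16, limma adjusted p = 0.024; 0.0967 without control replicate 1 at 4 °C). In knockouts it was at 10.02, 10.12 and 9.66 and then 10.68, 10.90 and 10.67 (0.82 ± 0.16, 1.77-fold; adjusted p = 0.00695). Orai3, a store-operated calcium channel of the plasma membrane, was at 5.85, 5.37 and 5.66 and then 4.53, 4.78 and 4.76 in controls (-0.94 ± 0.16, adjusted p = 0.00283). In knockouts Orai3 went from 5.87, 5.70 and 5.97 to 4.39, 4.19 and 4.76 (-1.40 ± 0.16, 2.65-fold lower; adjusted p = 0.000345). No gene of the 4 lists was called for the interaction by limma (0.306% of all probe sets were). At an unadjusted p under 0.05 the contact, mitochondrial, ER and acyl-CoA synthetase lists had 3, 0, 1 and 1 genes. Of all probe sets 9.77% lay under it.

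Genes of muscle calcium release in the ER list spread widely without a call. Atp2a1, the calcium pump of skeletal muscle, differed by -3.07 ± 1.55 at room temperature (limma adjusted p = 0.436), and Ryr1, the release channel of skeletal muscle, by -2.16 ± 0.81 (adjusted p = 0.259). Both were named after their values were seen. The skeletal muscle markers had 0 of 17 called in that comparison by limma and 12 of 17 at an unadjusted p under 0.05, all lower in knockouts. Over all 23521 probe sets 3058 lay under that p, in either direction. Of the members, Vapb (r = 0.66) and Vdac1 ran most closely with the muscle score over the 12 arrays, while Acsl4 had r = -0.41, Rmdn3 -0.37 and Itpr2 0.14.

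**Figure D3:**
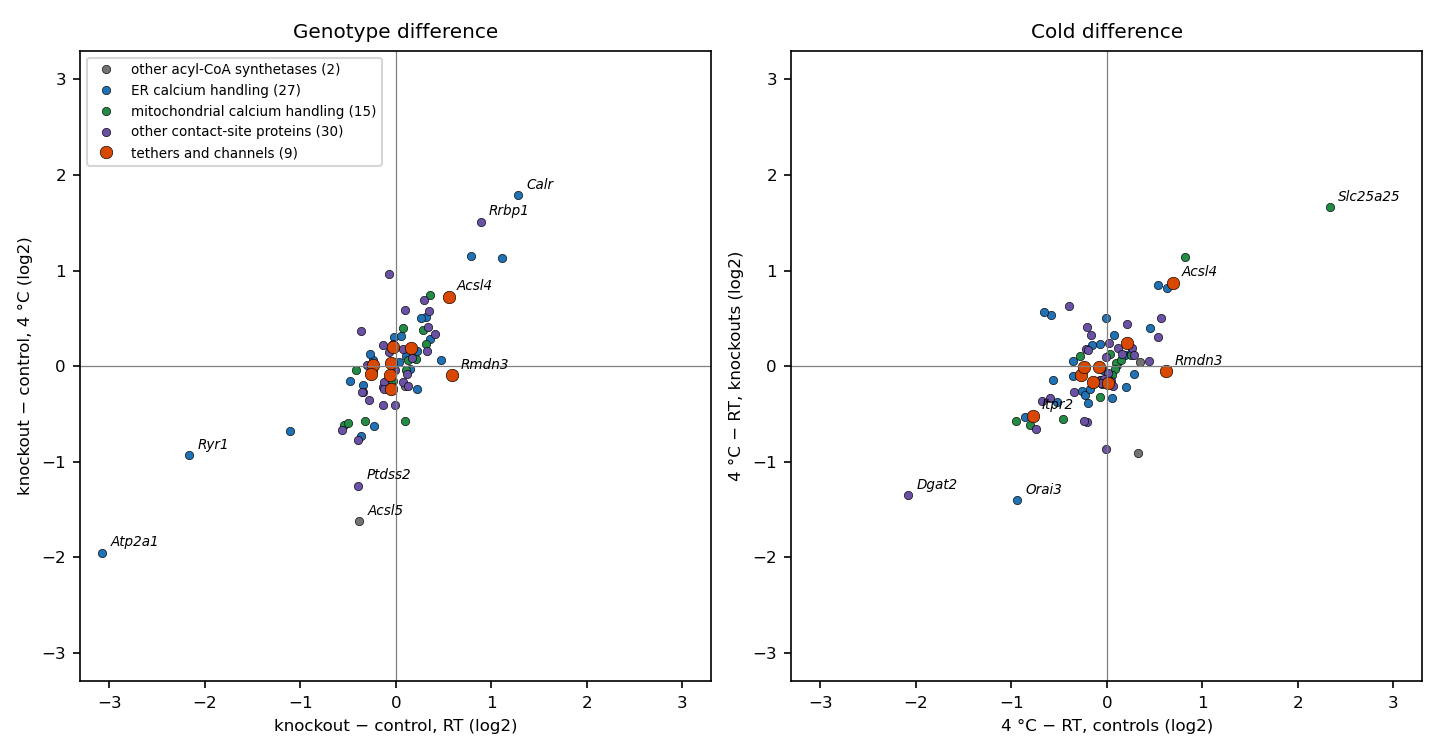
Log2 differences of the 9 members and the 74 measured genes of the 4 lists, 1 point per gene, coloured by list. On the left is knockout minus control at room temperature (horizontal axis) and 4 °C (vertical axis), and on the right is 4 °C minus room temperature in controls (horizontal axis) and knockouts (vertical axis). On the left Calr and Rrbp1 lie high on both axes, Acsl4 is at 0.55 and 0.73, and Atp2a1 and Ryr1 lie far out without a call; on the right Slc25a25 (2.33 and 1.66) and Dgat2 (-2.08 and -1.35) stand at the ends.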

How the data were processed

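Total RNA of snap-frozen brown adipose tissue was labelled for Affymetrix whole-transcript arrays, per the labels' protocols; the design text speaks of isolated brown adipocytes. The authors deposited 1 table of log2 expression values for 41345 probe sets in 12 arrays, made with RMA per the submitters' processing notes (version not given in the sources used here). RMA subtracts background, sets arrays to 1 distribution and summarises probes, so a shift shared by all genes would not be seen. No scanner files were used here, so detection and batch were not tested. The number of arrays limits the precision (median SE of a difference 0.14), and since nothing states that replicates are separate animals, p-values measure the spread between these samples only.

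Probe sets with 1 gene symbol in the platform annotation (23521, for 22180 genes) were tested; 1814 had several symbols and 16010 none. A gene was its probe set with the highest mean. Group means were fitted with limma 3.58.1 (R 4.3.3) to all 12 arrays, and p-values were adjusted by Benjamini-Hochberg over the 23521, called under 0.05. Differences are knockout minus control, or 4 °C minus room temperature. Comparisons that share a group share its arrays. The fit was tested on simulated data.

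Named genes were all members, the 6 genes of each pathway list with the smallest adjusted p among those called, partners and paralogs of members, and the 3 genes most like each called member. The members, lists, motifs and markers were chosen with earlier results of these data known. Alternatives left out each array, left out or moved the array with conflicting labels, used only the arrays compared, a replicate block, a filter on a mean above 4, all probe sets, the mean of a gene's probe sets, a trended and robust spread, array weights, median centring, or the muscle score as a covariate.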

Additional observations from a re-analysis of the deposited data

Results flagged for a closer look

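Rmdn3, the mitochondrial partner of VAPB in a tether, had knockout arrays on opposite sides of the controls at the 2 temperatures, with neither difference called. At room temperature all 3 knockout arrays were above all 3 controls (0.59 ± 0.14, limma adjusted p = 0.0526), and at 4 °C all 3 were below (-0.09 ± 0.14, adjusted p = 0.833). The difference between the genotype differences of Rmdn3 was -0.68 ± 0.19 on the log2 scale. Its limma adjusted p was 0.212, so it did not pass over all probe sets.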

How the results depend on the processing

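The counts of called members for knockouts against controls at 4 °C (1), for the interaction (0) and for genotype averaged over temperatures (1) did not change in any alternative. For knockouts against controls at room temperature the count of 0 became 1 without the array with conflicting labels or with the mean of a gene's probe sets, and 2 with a mean above 4 or with a trended, robust spread. It ranged from 0 to 1 when single arrays were left out. For cold in controls the 3 became 0 when the array with conflicting labels was counted among the controls at 4 °C, and stayed at 3 to 3 without single arrays. For cold in knockouts the 2 became 1 with that array moved, with only the arrays compared or with all probe sets in the adjustment, and ranged from 1 to 2. For cold averaged over genotypes the 2 became 4 without that array or with a mean above 4, and ranged from 2 to 4. With that array moved the count was again 2, but Itpr2 was lost (0.0574) and Pdzd8 was called (0.0295). Causes were not tested, except that fewer or more probe sets change the adjustment. Replicate numbers did not pair the arrays: the 18 same-number pairs had a mean r of -0.01 (-0.30 to 0.34, 3 over 0.1) and the 36 others 0.00. With a replicate block the counts of members were 0, 1, 3, 2, 0, 1 and 2 in the 7 comparisons, as without it, no member's call changed, and the mitochondrial calcium list at 4 °C went from 4 calls to 2. Over single members 1347 values kept their side and sign, 19 became called, 12 lost their call, and 55 uncalled values changed sign; no called value changed sign.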
